A study of Mus musculus with 6 samples.

Results

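The genes described here are the 130 of 21959 rows of a deposited mouse expression table whose pathway annotation includes the KEGG lysosome pathway. The choice used the annotation alone and no measured value. They were divided by the function of their products into 7 classes: 19 cathepsins and other proteases, 24 glycosidases, 8 sulfatases, 13 lipases, nucleases, phosphatases and activators, 26 membrane proteins and transporters, 10 proton pump subunits, and 30 genes of sorting and delivery. RNA was sequenced from white adipose tissue of mice, which the series text places in the gonadal depot, in 3 wild-type (WT) libraries, numbered 10, 11 and 12, and 3 libraries of the genotype ++Oxtr, numbered 7, 8 and 9. What ++Oxtr stands for in the genome, which promoter or cell type drives it, and the age and sex of the mice are not described in the labels. No treatment is named for either group. The labels do not say that the libraries of a group are separate animals, so the p-values rest on the variation among these 6 libraries, and part or all of that variation may be technical.

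The lysosome is the acidic organelle in which a cell breaks down proteins, complex sugars, lipids and nucleic acids. A proton pump, the V-ATPase, acidifies its lumen, and most of its enzymes are sorted there from the Golgi by mannose 6-phosphate tags and clathrin adaptors. Nearly all animal cells have lysosomes, and macrophages, which engulf and digest material, hold many and make some lysosomal proteins, such as the membrane protein CD68, at high levels. Adipose tissue holds adipocytes together with resident macrophages, and all of them contributed RNA to these bulk libraries. In such libraries, fewer cells of a type and less RNA per cell cannot be told apart.

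Total counts ran from 14314517 to 19186696 per library. Oxtr itself was at 22.0, 61.4 and 45.2 CPM (read counts scaled to library size) in WT and at 90.7, 89.7 and 81.8 CPM in ++Oxtr, without overlap (log2 fold change 1.03, edgeR adjusted p 0.469). The adipocyte markers were abundant, summing to between 26340 and 35765 CPM, with a median of 536 FPKM (counts scaled to gene length and library total) over 10 genes. The summed macrophage markers were at 2675, 2330 and 2936 CPM in WT and at 2093, 1862 and 2055 CPM in ++Oxtr, and that difference is given beside the lysosome genes below. Markers of other cell types differed as well. The summed neutrophil markers were at 13.4, 9.85 and 18.6 CPM in WT and at 33.4, 16.8 and 46.9 CPM in ++Oxtr. Of the 5, 3 were higher at an unadjusted p of 0.05 in edgeR (4.44% of all tested genes), with a median log2 fold change of 1.37 over the 5. S100a9 passed DESeq2 (adjusted p 0.0420), while Camp was below zero, at -0.82. The endothelial markers summed to 1225 to 1299 CPM in WT and 1156 to 1278 CPM in ++Oxtr, with Pecam1 and Tie1 lower without overlap (7.61% of all tested genes). The part of these cell types in the results below was not tested. The 6 markers of multiciliated cells summed to between 0.59 and 14.6 CPM in WT and reached 90.3 CPM in ++Oxtr 8, and 5 markers of T and natural killer cells reached 34.2 CPM in ++Oxtr 9 against at most 13.5 CPM elsewhere.

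Many lysosome genes are known to carry a short promoter motif, the CLEAR element, bound by the transcription factor TFEB and its relatives. Promoter windows from 250 bases before to 50 bases after a start were taken from RefSeq (GRCm38.p6) and matched 103 of the 130 genes, with 121 windows. The core TCACGTG, read on both strands, was in 18.2% of these windows, against 3.77% of all 32851 windows of this length and 5.67% of the windows of tested genes. The shorter CACGTG, which lies within TCACGTG, so that the 2 counts overlap, was in 20.7% of the lysosome windows, 7.15% of all windows and 9.57% of those of tested genes. Median GC content was 57.7% in the lysosome windows, above the 52.7% of all windows and below the 60.3% of windows of tested genes. Among the genes listed below as abundant in macrophages, 1 of 17 windows held TCACGTG. Upstream sequences are shown as examples of windows with the core (3 genes) and without it (2 genes), chosen after values were seen. They do not stand for a difference in expression, since genes with the core also include the lower Lgmn, Sgsh and Gla. Each line holds 150 bases, 5′ to 3′ on the gene's own strand, which end before the first annotated exon. Capitals mark TCACGTG or its reverse complement. Gaa, the acid glucosidase that degrades glycogen, has 1 match, 141 bases before its RefSeq start (chr11:119267737-119267886, plus strand). Lamp1, the most abundant lysosomal membrane protein gene of the set, has 4 within 62 bases of its start (chr8:13159011-13159160, plus strand). Mcoln1, which encodes the lysosomal calcium channel TRPML1, has 1 in the bases shown (chr8:3500307-3500456, plus strand) and 3 in its whole window. Ctsc, encoding the protease cathepsin C (chr7:88277935-88278084, plus strand), and Cd68 (chr11:69666171-69666320, minus strand) have none in their windows.
Gaa: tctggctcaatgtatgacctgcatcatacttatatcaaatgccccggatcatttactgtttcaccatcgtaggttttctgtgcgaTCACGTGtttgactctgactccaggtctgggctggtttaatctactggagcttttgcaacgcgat
Lamp1: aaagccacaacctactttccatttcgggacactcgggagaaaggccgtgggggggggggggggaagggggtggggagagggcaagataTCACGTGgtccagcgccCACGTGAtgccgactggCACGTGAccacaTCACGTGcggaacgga
Mcoln1: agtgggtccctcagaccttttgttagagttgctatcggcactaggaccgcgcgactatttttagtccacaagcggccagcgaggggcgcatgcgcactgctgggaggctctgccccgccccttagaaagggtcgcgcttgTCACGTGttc
Ctsc: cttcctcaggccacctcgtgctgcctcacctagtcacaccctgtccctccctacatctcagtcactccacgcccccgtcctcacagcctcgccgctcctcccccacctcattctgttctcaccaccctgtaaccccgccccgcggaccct
Cd68: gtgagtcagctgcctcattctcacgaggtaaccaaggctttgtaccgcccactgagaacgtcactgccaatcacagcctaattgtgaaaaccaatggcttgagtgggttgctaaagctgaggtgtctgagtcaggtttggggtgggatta

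Lysosome genes were expressed throughout these libraries, and the most abundant of them were a lipid activator, 2 cathepsins and a membrane protein. After a filter on low counts that kept 13566 rows of the table, 115 of the 130 genes were tested. Levels between genes are compared here in FPKM, which divides by gene length, as means over the 6 libraries. Psap, whose product is cut into the saposins that help degrade sphingolipids, was highest at 588 FPKM. Ctsb (cathepsin B, 237 FPKM), Lamp1 (187 FPKM) and Ctsd (cathepsin D, 150 FPKM) followed, with the phosphatase gene Acp5 at 149.8 FPKM. A mean of at least 10 FPKM was reached by 74 of the 115 tested genes (64.3%), while 6 lay under 1 FPKM. By class, the median level was 26.8 FPKM for cathepsins and other proteases, 22.2 FPKM for lipases, nucleases, phosphatases and activators, and 16.5 FPKM for membrane proteins. It was 13.8 FPKM for proton pump subunits, 13.4 FPKM for sulfatases, 12.2 FPKM for glycosidases and 11.2 FPKM for sorting and delivery. Of the 15 genes left out by the filter, 5 had no read in any library, among them the placental cathepsins Ctsj and Ctsm and the sperm hyaluronidase Spam1. Ctsg, a protease of neutrophil granules, had at most 1 read in a library.

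**Figure D1:**
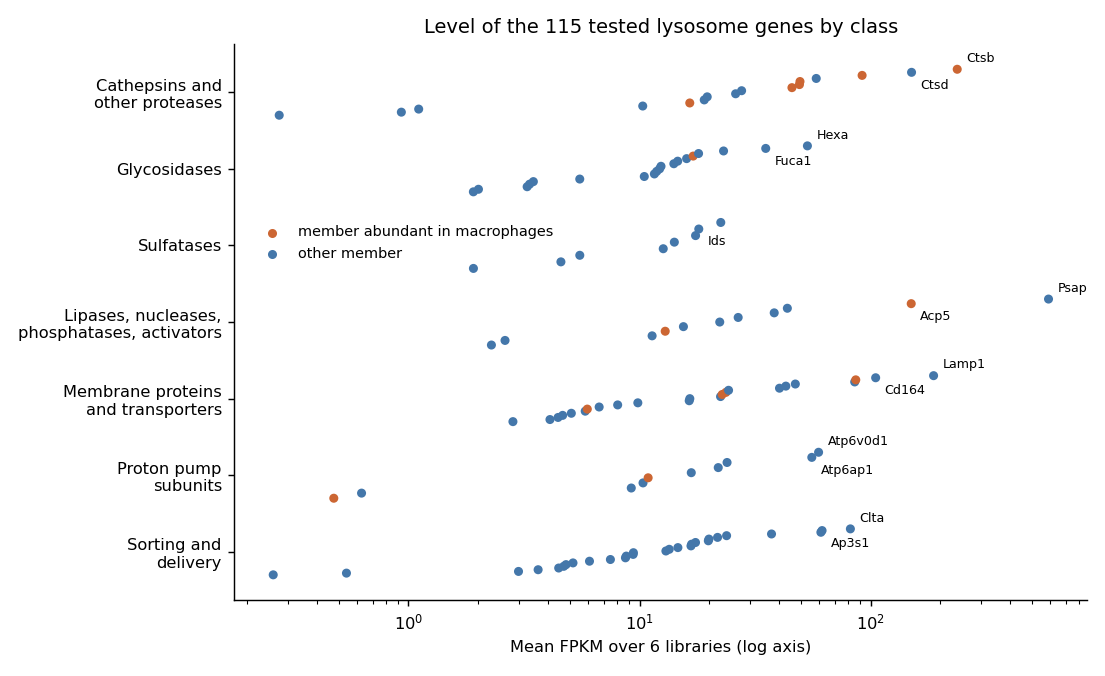
Mean FPKM over the 6 libraries (log axis) of the 115 tested lysosome genes, by class; each point is a gene, and up to 2 of the most abundant of each class are named. Orange points are genes on the list of members abundant in macrophages. Psap at 588 FPKM, Ctsb at 237 FPKM and Lamp1 at 187 FPKM stand at the right end.

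Together the 130 genes took 1.47%, 1.39% and 1.43% of all counts in the WT libraries and 1.40%, 1.38% and 1.25% in ++Oxtr, so the groups overlapped in the total. No lysosome gene passed an adjusted p of 0.05 in edgeR's quasi-likelihood test with Benjamini-Hochberg adjustment, where 0.0% of all tested genes passed. At an unadjusted p of 0.05 in that test, 8 of the 115 genes (6.96%) were lower in ++Oxtr, against 4.47% of all tested genes, and 2 (1.74%) were higher, against 4.44%. DESeq2 called 1 lysosome gene, Ctsc, lower at its adjusted p of 0.05, where 0.708% of all genes were called lower and 0.693% higher. Limma on the deposited FPKM, added as another unit, put 16 lower (6.48% of all tested genes) and 1 higher (3.08%) at an unadjusted p of 0.05. The groups did not overlap for 14 genes lower in ++Oxtr (12.2%, against 7.61% of all tested genes) and for 6 genes higher (5.22%, against 7.45%). Fold changes were small: 86 of the 115 lay within 0.2 of zero on the log2 scale, and their median was -0.03, against 0.00 over all tested genes. The log2 fold change, ++Oxtr over WT, was below 0 for 70 of them (60.9%), where 49.2% of all tested genes were below 0. One library weighed on this count: ++Oxtr 9 was the lowest of the 6 for 46 of the 115 genes (40.0%), against 23.3% of all tested genes. Without it the median was 0.01. In the other direction, ++Oxtr 8 was the highest of the 6 for 31 of the 115 genes (27.0%), against 20.2% of all tested genes. The median was -0.06 without ++Oxtr 8, and between -0.06 and -0.02 without any 1 library other than ++Oxtr 9.

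**Figure D2:**
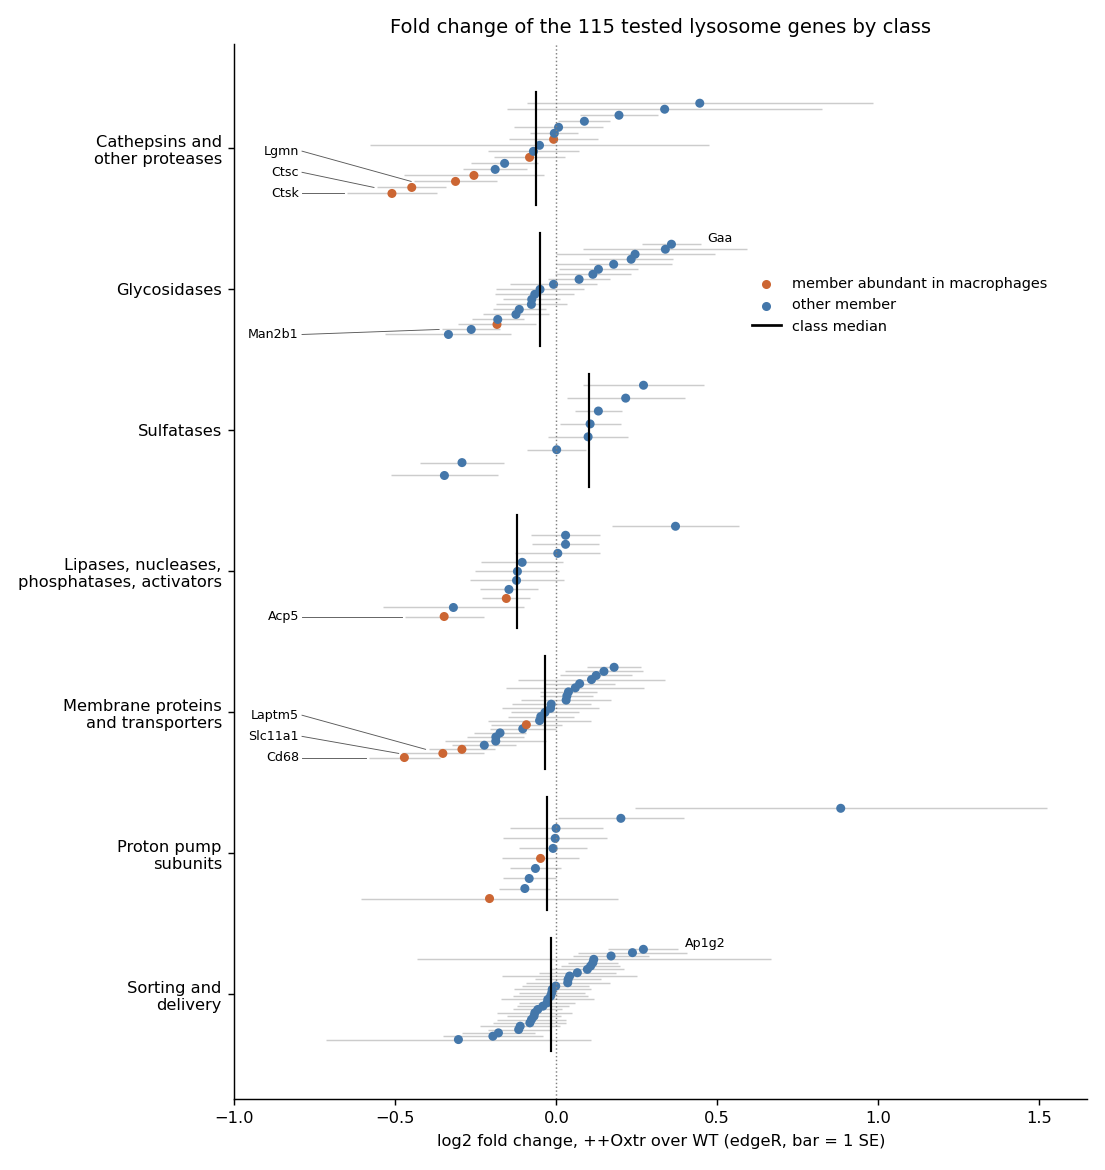
Log2 fold change of ++Oxtr over WT from edgeR for the 115 tested lysosome genes, by class; each point is a gene, the bar is 1 standard error and the black line is the class median. The 10 genes at an unadjusted p of 0.05 are named, 8 below zero and 2 above. Most points lie within 0.2 of zero.

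Among the cathepsins and other proteases, which cut proteins in the lysosome, 11 of 16 tested genes were below zero and 5 above, with a median of -0.06. At an unadjusted p of 0.05 in edgeR, 3 were lower (4.47% of all tested genes) and none was higher (4.44%), and Ctsc, Ctsk and Lgmn were these 3. Cathepsin C, encoded by Ctsc (ENSMUSG00000030560, chr7:88278085-88310888, plus strand, GRCm38), activates granule proteases of immune cells by trimming their ends. Ctsc was at 289, 313 and 314 CPM in WT and at 250, 222 and 199 CPM in ++Oxtr. All 3 ++Oxtr libraries lay below all 3 WT libraries. The means were 305 ± 14 and 224 ± 25.7 CPM (SD, n = 3), a log2 difference of -0.45 (SE 0.11), with an edgeR adjusted p of 0.349. An exact permutation test of Ctsc gave 0.1, which is the lowest p possible for 3 against 3 libraries. The DESeq2 adjusted p for Ctsc was 0.0192. That call ended without WT 11 (adjusted p 0.156), WT 12 (0.203), ++Oxtr 8 (0.153) or ++Oxtr 9 (0.05001), and held without the other 2 libraries.

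Ctsk, encoding cathepsin K, the collagen-degrading protease best known from osteoclasts, was at 25.7, 29.3 and 32.6 CPM in WT and at 20.1, 23.3 and 18.0 CPM in ++Oxtr. Its groups did not overlap either, and the log2 fold change of -0.51 (SE 0.14) had an adjusted p of 0.393 in edgeR. Lgmn encodes legumain, which cuts after asparagine and processes other cathepsins. It was at 124, 112 and 143 CPM in WT and at 114, 102 and 89.1 CPM in ++Oxtr, so the groups overlapped, with a log2 fold change of -0.31 (SE 0.13), or -0.21 without WT 12. The abundant Ctsb was at 1571, 1395 and 1350 CPM in WT and at 1546, 1540 and 1205 CPM in ++Oxtr. The groups overlapped, with a log2 fold change of -0.01 (SE 0.14). Ctss, encoding cathepsin S of antigen-presenting cells, was at 74.5, 62.9 and 81.5 CPM in WT and at 51.4, 48.8 and 83.4 CPM in ++Oxtr. Its ++Oxtr 9 library was the highest of all 6 and the other 2 ++Oxtr libraries were the lowest. Its log2 fold change was -0.26 (SE 0.22) with all libraries and -0.54 without ++Oxtr 9, where DESeq2 called it (adjusted p 0.0381). Cathepsin D, an aspartic protease, went the other way: Ctsd was at 367, 316 and 308 CPM in WT and at 398, 407 and 329 CPM in ++Oxtr, a log2 fold change of 0.19 (SE 0.12) with overlapping groups. Ctsl, for cathepsin L, at 0.01 (SE 0.14), and Tpp1, a peptidase that removes tripeptides, at -0.01 (SE 0.08), were close to level. Ctsw, a protease of cytotoxic lymphocytes, was at 4.12 CPM in ++Oxtr 9 and between 1.32 and 1.94 CPM in the other libraries. That is the library in which the T and natural killer cell markers were highest, and their part in the value was not tested.

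**Figure D3:**
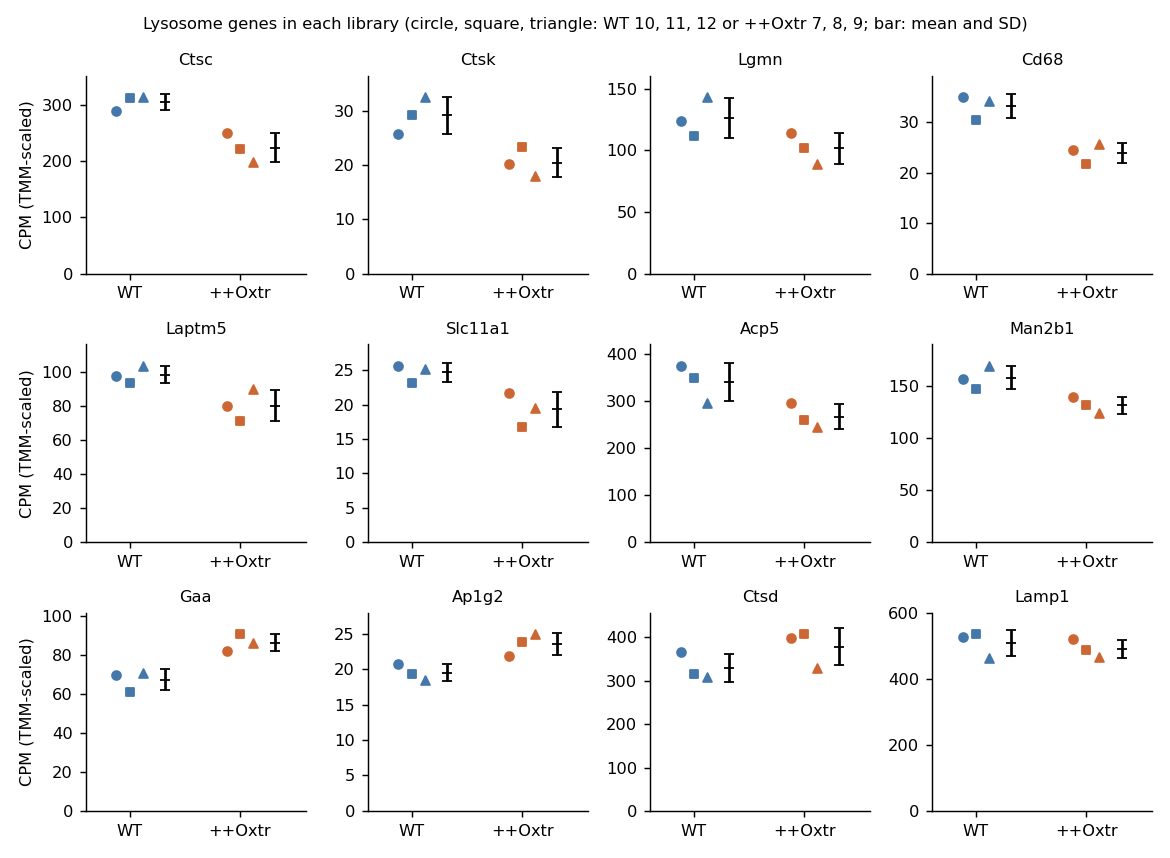
TMM-scaled CPM of 12 lysosome genes in each library, with circle, square and triangle for WT 10, 11 and 12 (blue) or ++Oxtr 7, 8 and 9 (orange); the bar is the mean and SD of 3 libraries. In Ctsc, Ctsk, Cd68, Laptm5, Slc11a1 and Man2b1 the ++Oxtr points lie below the WT points, in Gaa and Ap1g2 above, and in Lgmn, Acp5, Ctsd and Lamp1 the groups overlap or touch.

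The glycosidases, which remove sugars from glycoproteins, glycolipids and glycogen, had 11 of 19 tested genes below zero and 8 above, with a median of -0.05. Gaa (ENSMUSG00000025579, chr11:119267887-119285454, plus strand, GRCm38), whose deficiency causes Pompe disease, was the lysosome gene with the smallest p among those higher in ++Oxtr. It was at 69.7, 61.0 and 70.7 CPM in WT and at 81.6, 90.4 and 86.1 CPM in ++Oxtr. Every ++Oxtr library lay above every WT library. The means were 67.1 ± 5.36 and 86.0 ± 4.39 CPM (SD, n = 3), a log2 difference of 0.36 (SE 0.09), with an edgeR adjusted p of 0.368 and a DESeq2 adjusted p of 0.107. With each library left out in turn it stayed between 0.30 and 0.40. Man2b1, the acid alpha-mannosidase gene, was at 156, 147 and 169 CPM in WT and at 139, 131 and 123 CPM in ++Oxtr. Its groups did not overlap, and the log2 fold change of -0.26 (SE 0.09) had an adjusted p of 0.469 in edgeR. Gusb, encoding beta-glucuronidase, was at 74.7, 71.5 and 65.9 CPM in WT and at 62.1, 62.4 and 62.4 CPM in ++Oxtr, a log2 fold change of -0.18 (SE 0.08) without overlap. Gla, encoding alpha-galactosidase A, and Hexa, encoding the alpha subunit of beta-hexosaminidase, were the other 2 glycosidase genes whose groups did not overlap, at -0.34 (SE 0.20) and -0.12 (SE 0.08). Glb1, encoding the beta-galactosidase often stained as a senescence marker, was at -0.08 (SE 0.09). Manba (beta-mannosidase) and Fuca2 (a fucosidase) were each highest in ++Oxtr 8, at 35.5 and 32.7 CPM against at most 23.8 and 22.0 CPM in the other 5 libraries. The class median was 0.06 without ++Oxtr 9.

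The sulfatases, which take sulfate groups off glycosaminoglycans and sulfolipids, leaned up in count but not in any test: 6 of 8 were above zero, none had an unadjusted p of 0.05, and their median was 0.10. Arsb, which removes sulfate from dermatan sulfate, was at 75.5, 72.1 and 71.4 CPM in WT and at 78.5, 79.5 and 81.9 CPM in ++Oxtr. Its groups did not overlap, with a log2 fold change of 0.13 (SE 0.07) and an exact permutation p of 0.1. Arsa, whose loss causes metachromatic leukodystrophy, was at 0.10 (SE 0.12). Both lower genes act on heparan sulfate. Ids, for iduronate sulfatase, was at 101, 95.4 and 108 CPM in WT and at 99.2, 72.9 and 75.6 CPM in ++Oxtr, a log2 fold change of -0.29 (SE 0.13). Its ++Oxtr 7 library lay within the WT range. DESeq2 called Ids without ++Oxtr 7 (adjusted p 0.0336) and not with all libraries. Without that library its log2 fold change was -0.45. Sgsh, for sulfamidase, was at -0.35 (SE 0.17), and at -0.21 without ++Oxtr 9.

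Among the lipases, nucleases, phosphatases and activators, 7 of 11 tested genes were below zero and the median was -0.12. Acp5, the tartrate-resistant acid phosphatase of osteoclasts and macrophages (ENSMUSG00000001348, chr9:22126727-22135711, minus strand, GRCm38), was at 376, 349 and 296.5 CPM in WT and at 296.5, 260 and 246 CPM in ++Oxtr. The lowest WT and the highest ++Oxtr library had the same value. The means were 341 ± 40.4 and 268 ± 26.2 CPM (SD, n = 3), a log2 difference of -0.35 (SE 0.12), with an edgeR adjusted p of 0.482. Its exons share 137 bases with a gene on the other strand, and whether counting used strand is not given in the sources used here. The same holds for Ctsb (774 bases shared with Fdft1), Lamp1 (177 bases with Grtp1) and Ap1g2 (137 bases with Thtpa). Other genes printed here share bases too, among them Arsb (1948 bases), Ctsl (1742 bases) and Sgsh (955 bases). Ppt2 (957 bases), Ctsd (670 bases), Atp6v0a4 (259 bases) and Glb1 (165 bases) share bases with a gene on the same strand, as does Ctsl (395 bases). Psap, the most abundant lysosome gene, was at 1678, 1497 and 1623 CPM in WT and at 1706, 1559 and 1630 CPM in ++Oxtr. The groups overlapped, with a log2 fold change of 0.03 (SE 0.11). Lipa, the acid lipase that hydrolyses cholesteryl esters and triglycerides in lysosomes, was at 95.3, 88.2 and 93.1 CPM in WT and at 80.9, 85.4 and 82.2 CPM in ++Oxtr. Its groups did not overlap, though the log2 fold change was only -0.16 (SE 0.07). Ppt2, a thioesterase gene, was at 0.37 (SE 0.20) with a mean of 2.62 FPKM and overlapping groups.

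Membrane proteins and transporters had 14 of 23 tested genes below zero and 9 above, with a median of -0.04. All 3 at an unadjusted p of 0.05 in edgeR were lower, where 4.47% of all tested genes were lower and 4.44% higher. Cd68 (ENSMUSG00000018774, chr11:69664213-69666153, minus strand, GRCm38), encoding the macrophage LAMP-like protein, had the smallest p of all lysosome genes in edgeR, though not in DESeq2, where Ctsc had it. It was at 35.0, 30.4 and 34.1 CPM in WT and at 24.4, 21.7 and 25.6 CPM in ++Oxtr. The highest ++Oxtr library lay below the lowest WT library. The means were 33.2 ± 2.43 and 23.9 ± 2.0 CPM (SD, n = 3), a log2 difference of -0.47 (SE 0.11), with an edgeR adjusted p of 0.347 and a DESeq2 adjusted p of 0.0676. Laptm5, a lysosomal membrane protein of blood cells, was at 97.8, 93.8 and 104 CPM in WT and at 79.9, 71.3 and 89.8 CPM in ++Oxtr. Slc11a1, the metal transporter NRAMP1 of phagocytes, was at 25.6, 23.2 and 25.2 CPM in WT and at 21.7, 16.7 and 19.4 CPM in ++Oxtr. Neither gene's groups overlapped, and their log2 fold changes were -0.29 (SE 0.10) and -0.35 (SE 0.13). The structural proteins of the lysosomal membrane differed less. Lamp1 was at 527, 536 and 465 CPM in WT and at 521, 489 and 468 CPM in ++Oxtr, with overlapping groups and a log2 fold change of -0.05 (SE 0.10). Lamp2, which also serves chaperone-mediated autophagy, was at 452, 377 and 415 CPM in WT and at 367, 349 and 349 CPM in ++Oxtr. Lamp2 was lower without overlap, by a log2 fold change of -0.22 (SE 0.10). Cd63, a tetraspanin of late endosomes, also did not overlap, at -0.19 (SE 0.09). Abca2, a lipid transporter, was higher without overlap, at 0.18 (SE 0.08). Npc1 and Npc2, whose products act together in cholesterol export, were at 0.06 (SE 0.21) and -0.09 (SE 0.11). The product of Npc2 is a soluble protein of the lumen, though the gene was placed in this class. The calcium channel Mcoln1 was at 0.04 (SE 0.09).

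The proton pump subunits were near level: 8 of 10 were below zero, but their median was -0.03, and none had an unadjusted p of 0.05. Atp6v0a1, a subunit of the membrane sector, was at 101, 115 and 114 CPM in WT and at 119, 127 and 82.3 CPM in ++Oxtr. Its ++Oxtr libraries held both the highest and the lowest value. Atp6v0d1, the most abundant subunit gene at 59.5 FPKM, was at -0.08 (SE 0.08). Atp6v0a2 was the only subunit whose groups did not overlap, at 70.1, 75.6 and 70.3 CPM in WT and 69.0, 68.7 and 64.1 CPM in ++Oxtr, a log2 fold change of -0.10 (SE 0.08). Atp6v0a4, the form of kidney and other epithelia, was at 4.36, 0.763 and 1.44 CPM in WT and at 2.60, 5.93 and 3.71 CPM in ++Oxtr. The groups overlapped, and its value of 0.88 (SE 0.64) was the largest of any tested lysosome gene. It was 1.88 without WT 10, 0.49 without WT 11 and 0.51 without ++Oxtr 8. The exons of Atp6v0a4 share 259 bases with D630045J12Rik on the same strand. That gene had a mean of 5.44 CPM, against 3.14 CPM for Atp6v0a4. Another 9 pump subunit genes of the V-ATPase lie outside the annotated set, and 4 of them were below zero, with a median of 0.03. Of these Atp6v1b2, the B2 subunit of the catalytic sector, had the smallest p. It was at 154, 153 and 141 CPM in WT and at 122, 137 and 113 CPM in ++Oxtr, without overlap, a log2 fold change of -0.27 (SE 0.10, edgeR adjusted p 0.492). Atp6v1a, the catalytic subunit itself, was at 0.00 (SE 0.10), and Atp6ap2, the accessory prorenin receptor, at -0.17 (SE 0.09).

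Genes of sorting and delivery had 17 of 28 tested members below zero and 11 above, with a median of -0.02. Ap1g2, a gamma subunit of the AP-1 clathrin adaptor, was the only one at an unadjusted p of 0.05. It was at 20.8, 19.3 and 18.5 CPM in WT and at 21.9, 23.9 and 24.9 CPM in ++Oxtr. The ++Oxtr libraries all lay above WT, with a log2 fold change of 0.27 (SE 0.11) and an edgeR adjusted p of 0.526. Ap3b1, of the AP-3 adaptor that routes membrane proteins to lysosomes, was also higher without overlap, at 0.11 (SE 0.08), and Ap3s2 of the same adaptor was at -0.18 (SE 0.11) with overlap, or -0.11 without ++Oxtr 9. Igf2r, the large mannose 6-phosphate receptor, and M6pr, the small one, were at 0.04 (SE 0.10) and -0.12 (SE 0.10). Clta, a clathrin light chain and the most abundant of the class at 81.7 FPKM, was at -0.06 (SE 0.08). Ap1m2, the AP-1 subunit of polarised epithelia, had too few reads for the test. It stood at 3.10 CPM in ++Oxtr 8 and at most 0.27 CPM in the other libraries, and ++Oxtr 8 also had the highest sum of 5 epithelial markers, 100.3 CPM against at most 26.2 CPM. Their part in that value was not tested.

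The genes lower in ++Oxtr were then set against macrophage content. A list of 15 lysosome genes known to be abundant in macrophages or osteoclasts, their relatives, included Cd68, Laptm5, Slc11a1, Acp5, Lipa, Npc2, Tcirg1, Atp6v0d2, Lgmn and the cathepsin genes Ctsb, Ctsc, Ctsk, Ctss and Ctsz. It was drawn up with earlier results of these data known, so its direction is a description and no independent evidence. Which other lysosome genes are abundant in macrophages was not examined. Psap, Lamp1 and Ctsd, among the most abundant of the set, are not on the list and had log2 fold changes of 0.03, -0.05 and 0.19. All 15 were below zero, 7 of them at an unadjusted p of 0.05 (4.47% of all tested genes) and 6 without overlap between groups (7.61% of all tested genes), and their median was -0.26. Of the 100 other tested lysosome genes, 55 were below zero and 45 above, 1 was lower and 2 were higher at that p, and the median was -0.01. Man2b1 was the only gene outside the list among the 8 lower ones. Averaged over the list, log2 levels relative to the mean of the 6 libraries were 0.17, 0.06 and 0.16 for WT, and -0.06, -0.18 and -0.14 for ++Oxtr, without overlap. Summed CPM of the list, in which Ctsb and other abundant genes weigh most, was 3497, 3157 and 3154 for WT, and 3171, 3048 and 2705 for ++Oxtr, with overlap. The other lysosome genes averaged 0.02, -0.04 and 0.01 for WT, and 0.00, 0.07 and -0.06 for ++Oxtr, with overlap.

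**Figure D4:**
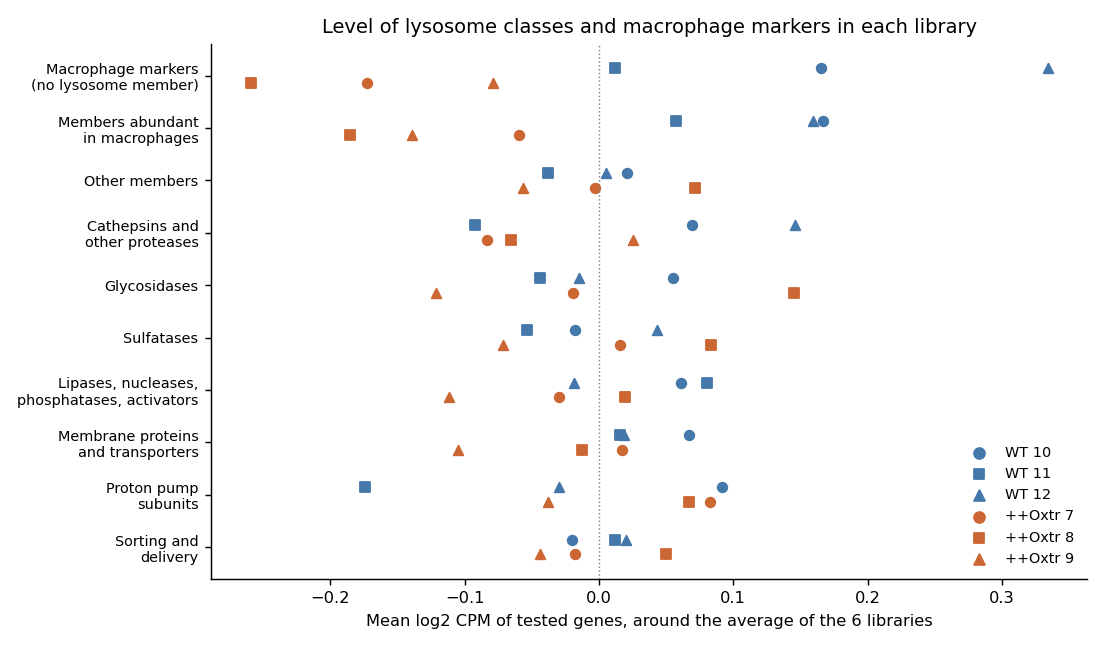
Mean log2 CPM of the tested genes of each list in each library, around the average of the 6 libraries; blue is WT, orange is ++Oxtr and the symbol gives the replicate. The macrophage markers and the 15 lysosome genes listed as abundant in macrophages are lower in all 3 ++Oxtr libraries than in any WT library, while the groups overlap for the other members and for each of the 7 classes. The list of 15 was drawn up with earlier results of these data known, so its direction is no independent evidence.

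Macrophage markers that are not lysosome genes were lower in the same libraries. Of 24 such markers, all tested and none at 0, 21 were below zero, 10 of them at an unadjusted p of 0.05 (4.47% of all tested genes), with a median of -0.35. Lower values past the DESeq2 adjusted threshold were found for 4 (0.708% of all tested genes), and 8 were lower without overlap (7.61%). The markers were uneven: Folr2 was at -0.92, Cd163 and Lyve1 at -0.89, Fcgr1 at -0.10 and Aif1 at -0.05. The 3 above zero were Siglec1 at 0.11, Cd14 at 0.15 and Cx3cr1 at 0.60. A score, the mean of their centred log2 CPM, stood at 0.17, 0.01 and 0.33 for WT, and at -0.17, -0.26 and -0.08 for ++Oxtr. Since the score does not overlap between the groups, genotype and the score can be told apart only in part, and errors grow when both are fitted. Whether the score reflects the number of macrophages or a change within them was not tested. With the score as a covariate in edgeR, the median of the 15 genes was -0.14 and 11 of them were below zero, and the median of the other 100 was -0.09. In this fit 2 lysosome genes (1.74%) were lower at an unadjusted p of 0.05, against 2.87% of all tested genes, and 3 (2.61%) were higher, against 2.80%.

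**Figure D5:**
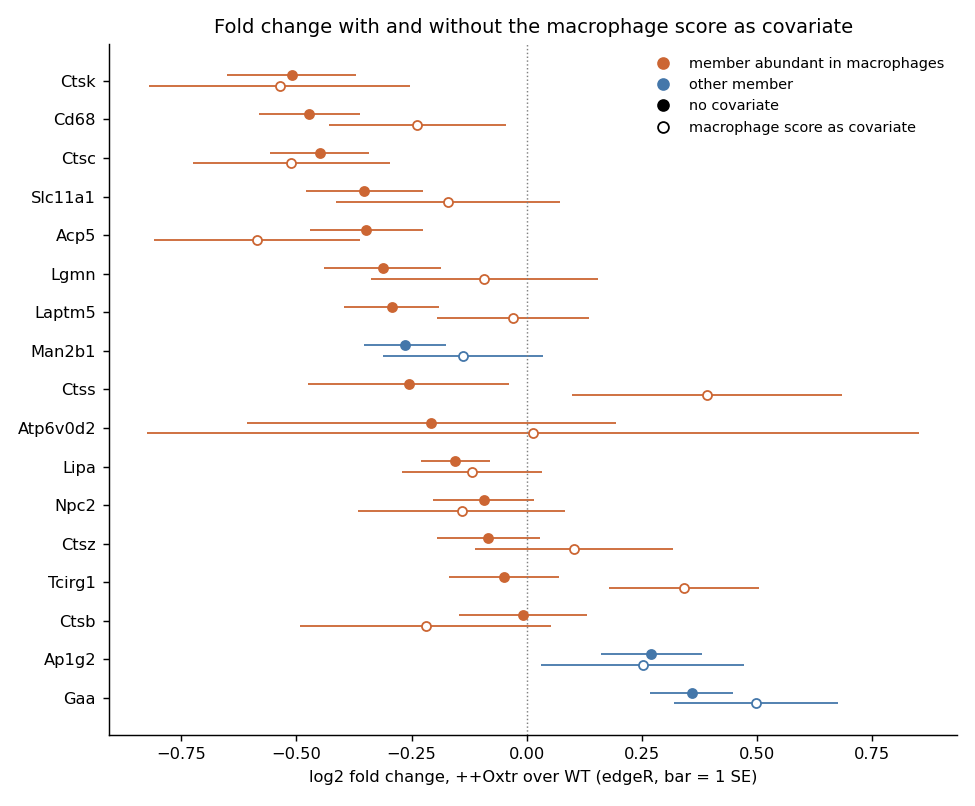
Log2 fold change of ++Oxtr over WT with 1 standard error from edgeR, without (filled) and with (open) the macrophage score as a covariate, for 14 members abundant in macrophages (orange) and 3 other members (blue). The bars are longer with the covariate, at 0.16 to 0.25 for Laptm5, Cd68, Slc11a1 and Lgmn, and they overlap between the fits for every gene drawn but Ctss and Tcirg1.

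Values of the lower genes in that fit are given with their larger errors, and differences between genes were not tested. Laptm5 was at -0.03 (SE 0.16) with the score against -0.29 without it, Lgmn at -0.09 (SE 0.25) against -0.31 and Slc11a1 at -0.17 (SE 0.24) against -0.35. Cd68 was at -0.24 (SE 0.19) against -0.47, and Man2b1 at -0.14 (SE 0.17) against -0.26. Ctss was at 0.39 (SE 0.29) against -0.26. Ctsc was at -0.51 (SE 0.21) against -0.45, and Ctsk at -0.54 (SE 0.28) against -0.51. Acp5 was at -0.59 (unadjusted p 0.0372, edgeR) against -0.35, and the sphingomyelinase gene Smpd1 at -0.53 against -0.11. Gaa stayed above zero at 0.50 (unadjusted p 0.0287, edgeR), and the pump subunit gene Atp6v0c and the cathepsin gene Ctsh were higher, at 0.89 and 0.43 against 0.20 and -0.07. No lysosome gene passed the adjusted threshold in that fit. A list of 8 genes of lipid-associated macrophages, which take up lipid in obese fat, was less uniform than the general markers, with 5 of 8 below zero and a median of -0.10. Fabp5, a fatty acid binding protein gene, was the only one of the 8 that passed the DESeq2 adjusted threshold. It was at 180, 188 and 198 CPM in WT and higher without overlap, at 311, 445 and 433 CPM, in ++Oxtr, a log2 fold change of 1.07 (DESeq2 adjusted p 1.99e-08, edgeR 0.121). Trem2, the defining receptor of these cells, was at 4.78, 35.3 and 25.6 CPM in WT and at 3.88, 4.61 and 13 CPM in ++Oxtr, with overlap. Levels on this list were far apart, with means of 81.6 FPKM for Fabp5, 100.6 FPKM for Plin2 and 2.97 FPKM for Trem2. Which cells of the tissue the Fabp5 reads came from was not tested.

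Genes known to control lysosome number and activity were looked up beside their targets. Of 13 regulators tested (the TFEB family of transcription factors and parts of the mTORC1 signalling complex on the lysosome), 6 were below zero and none had an unadjusted p of 0.05, with a median of 0.00. Tfeb was at 15, 13.7 and 19.0 CPM in WT and at 15.3, 15.2 and 17.7 CPM in ++Oxtr, a log2 fold change of 0.01 (SE 0.16). Its ++Oxtr libraries lay within the WT range. Tfe3 was at 47.9, 51.2 and 49.0 CPM in WT and at 40.6, 47.6 and 42.7 CPM in ++Oxtr, lower without overlap at -0.18 (SE 0.09). Mitf, the third family member named here, was at 0.43 (SE 0.24) with overlap, its highest library being ++Oxtr 8. The 21 tested lysosome genes with TCACGTG in a promoter window had a median of -0.02, with 13 below zero and 8 above, 1 lower (Lgmn) and 1 higher (Gaa) at an unadjusted p of 0.05. The 69 tested genes whose windows lack it had a median of -0.03, with 42 below zero and 27 above. Of these, 7 were lower (4.47% of all tested genes) and 1 was higher (4.44%) at that p. The medians of genes with and without the core were thus close, and this difference was not tested.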

How the data were processed

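White adipose RNA was extracted with Trizol and sequenced from NEBNext Ultra II libraries, per the labels' protocols. Groups were taken from the sample titles. Each gene has, for every library, a raw count and an FPKM, per the file headers, and the deposited FPKM equals the count divided by gene length and by the column sum. The submitters' processing notes name mm10. The aligner, counter, annotation and use of strand are not given in these sources, so reads of overlapping genes on opposite strands cannot be told apart. Start and end match GENCODE M21 on GRCm38 for only 2 of the 130 lysosome genes, although the span length is the same for 128. The positions printed are therefore those of GENCODE M21. All 130 are protein coding there.

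Counts were tested with the quasi-likelihood test of edgeR 4.0.16 in R 4.3.3 (TMM factors, filterByExpr, robust, no covariate), fitted over all 13566 rows kept, with Benjamini-Hochberg adjustment and a threshold of 0.05. CPM values are TMM-scaled, and a count of 0 allows up to 3 counts, or 0.156 to 0.210 CPM per library (counting error only). Permutation tests over the 20 assignments of 3 and 3 libraries were exact and 2-sided. DESeq2 1.42.0, DESeq2 size factors, no filter, limma 3.58.1 on log2(FPKM + 0.5), the macrophage score as a covariate and leaving out each library were the alternatives. The fitting steps were tested on simulated data.

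Genes were named by rule: in each class the first listed gene, the one highest in FPKM and the 3 with the smallest p among those at 1 CPM or more, plus those past the DESeq2 threshold. A few genes that this rule picks are not reported here. Other genes printed were chosen after their values were seen. The members, classes and lists were chosen with earlier results of these data known, and 7 genes (Hyal2 to Hyal6, Spam1 and Fuca2) were classed after the table was seen.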

Additional observations from a re-analysis of the deposited data

How the results depend on the processing

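No paired analysis was possible because WT and ++Oxtr carry different replicate numbers. Of 149 comparisons of a class median or count with its value under an alternative, 124 stayed close. A count was close within a set ratio. A median was close if it moved by less than the spread of its class level among libraries of a group, so it could change sign. The glycosidase median of -0.0506 counted as close at 0.0244 with no filter and at -0.14 with the covariate. No lysosome gene passed the adjusted threshold of edgeR under any edgeR or limma alternative; DESeq2 gave 1, and 0 to 2 when a library was left out, a setting chosen after seeing the data. The count of genes lower at an unadjusted p was 8, against 16 with limma on FPKM, 2 with the macrophage score as a covariate, and 5 (without WT 12) to 9 with a library left out. The count higher was 2, against 1 each with DESeq2, no filter and limma, and 1 (without ++Oxtr 8) to 4 (without WT 10 or ++Oxtr 9) with a library left out. With the covariate the median was -0.0929 for all tested genes of the set, -0.113 for membrane proteins, -0.119 for sorting and delivery, -0.142 for the genes abundant in macrophages and -0.0895 for the others; with limma it was -0.0547 for sorting and delivery and -0.331 for the genes abundant in macrophages. Leaving out a library moved the medians from -0.171 to -0.0121 for cathepsins and other proteases, -0.0992 to 0.0618 for glycosidases, 0.0352 to 0.133 for sulfatases, -0.0931 to -0.0127 for membrane proteins, and -0.321 to -0.208 for the genes abundant in macrophages.

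Named genes near zero changed sign, none of them past a threshold. With a library left out, Ctsb ran from -0.0702 (without ++Oxtr 7) to 0.101 (without ++Oxtr 9), and Psap from -0.0103 (without WT 11) to 0.0653. Atp6v0a1 ran from -0.124 to 0.165 (without ++Oxtr 9), and Igf2r from -0.0457 (without ++Oxtr 7) to 0.0958. With limma on FPKM, which are not TMM-scaled, Psap was at -0.015 and Igf2r at -0.0083, and with the covariate Clta was at 0.0554. The causes were not tested.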
